A study of Mus musculus with 24 samples.

Results

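The genes described here are 55 that carry out or control DNA replication in S phase and that were grouped by known function. Each was read through the probe sets that name it alone, and where a gene had several, the brightest by mean log2 intensity over the 24 arrays was used. All 55 were measured, among 19938 genes read in the same way, and the mean of each lay above that of the median gene. The arrays hold RNA of mouse CD4 T cells of strain 129SvEv, in 8 groups of 3 arrays. In each genotype, unstimulated naive CD4 T cells made up day 0, cells polarized toward TH2 for 2 days made up day 2, and cells kept in that culture until day 4 made up a low dose group (2.2 ng/ml of soluble anti-CD3e) and a high dose group (10 ng/ml). The genotypes were wild type and Batf1/3DKO, called DKO below, which lacks BATF and BATF3, AP-1 family transcription factors that bind DNA together with JUN proteins and IRF4. All cultured cells were stimulated through CD3e and CD28 by antibodies that a second antibody, against hamster IgG, held to the plate. The anti-CD3e dose of the day 2 cultures is not given in the labels, so a day 4 group may differ from day 2 in dose as well as in time. The labels do not say that the arrays of a group came from separate mice, and the p-values then reflect only how far these arrays spread, which may be technical.

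Replication starts with licensing: in G1 phase the origin recognition complex, CDC6 and CDT1 load the ring-shaped MCM helicase onto DNA. In S phase CDC45 and the GINS complex turn that ring into an active helicase, polymerase alpha and its primase lay down primers, and polymerases delta and epsilon, held on DNA by the PCNA clamp, copy the strands. E2F transcription factors raise the expression of many of these genes when a cell leaves quiescence. Naive T cells are quiescent, and signals through the T cell receptor and CD28 drive them into rapid division.

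Arrays of one group correlated with each other at 0.983 to 0.992 over all genes. The Batf probe set read between 114 and 1696 on the wild-type arrays and between 26.7 and 52.1 on the DKO arrays. The Batf3 probe set separated the genotypes clearly at 10 ng/ml only, with 156, 173 and 109.7 in wild-type and 33.3, 24.7 and 31.5 in DKO cells. The 9 T cell identity genes measured, led by Thy1, summed to between 8341 and 14148 on every array. Of markers of other cells, 11 myeloid and dendritic genes summed to between 134 and 219, 5 B cell genes to between 60.1 and 161, and 6 NK and CD8 T cell genes to between 88.8 and 740.4, highest in DKO cells at 2.2 ng/ml, where Eomes was the brightest. The 4 erythroid and stromal genes, with Pecam1 the brightest, moved with activation: they summed to between 558 and 579 at day 0 in both genotypes, and at day 2 to between 155 and 200.04 in wild-type and between 214 and 244 in DKO cells. The part of these markers in the results below was not tested. No marker was at 0, since an array reading keeps a background. Among the wild-type arrays at 2.2 ng/ml the third held the highest value of 43 of the 55 replication genes and the second the lowest of 44. Total counts of called genes that rest on them are given below with and without them. Folds of single genes and counts by role are mostly given with them only. Genes whose dose calls held under every alternative are named. A lower summed reading can come from fewer cells in S phase or from less RNA per cell, and these cannot be told apart in bulk RNA.

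The promoters are shown for 5 of the genes because they differ in their response at day 4: Cdc6, Mcm5 and Tyms fell from the low to the high dose in wild-type cells, and Mcm6 and Orc1 did not. Each stretch is the 250 bases upstream of the RefSeq start on GRCm38.p6, written 5′ to 3′ on the gene's strand, and capitals mark matches to an E2F motif (TTTCCCGC, TTTGGCGC, TTTCGCGC or TTTCCCGG, on either strand). They lie at chr11:98907901-98908150 on the plus strand for Cdc6, chr8:75109259-75109508 plus for Mcm5, chr1:128359706-128359955 minus for Mcm6, chr4:108579204-108579453 plus for Orc1 and chr5:30073626-30073875 minus for Tyms.
Cdc6: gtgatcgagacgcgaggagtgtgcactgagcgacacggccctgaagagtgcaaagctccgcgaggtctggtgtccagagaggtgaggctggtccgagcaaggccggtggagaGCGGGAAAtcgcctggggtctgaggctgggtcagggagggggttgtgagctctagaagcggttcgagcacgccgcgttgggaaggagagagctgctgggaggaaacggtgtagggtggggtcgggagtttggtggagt
Mcm5: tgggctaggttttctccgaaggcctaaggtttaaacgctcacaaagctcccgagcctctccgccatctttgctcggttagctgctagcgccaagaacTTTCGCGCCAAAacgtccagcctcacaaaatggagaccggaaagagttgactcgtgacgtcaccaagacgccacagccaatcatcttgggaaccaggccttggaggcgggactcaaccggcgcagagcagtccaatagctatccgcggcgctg
Mcm6: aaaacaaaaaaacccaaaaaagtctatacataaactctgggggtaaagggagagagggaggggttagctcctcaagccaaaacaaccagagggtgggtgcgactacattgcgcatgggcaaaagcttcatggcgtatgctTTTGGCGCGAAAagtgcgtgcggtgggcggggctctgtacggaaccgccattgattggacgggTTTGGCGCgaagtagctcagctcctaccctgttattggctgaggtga
Orc1: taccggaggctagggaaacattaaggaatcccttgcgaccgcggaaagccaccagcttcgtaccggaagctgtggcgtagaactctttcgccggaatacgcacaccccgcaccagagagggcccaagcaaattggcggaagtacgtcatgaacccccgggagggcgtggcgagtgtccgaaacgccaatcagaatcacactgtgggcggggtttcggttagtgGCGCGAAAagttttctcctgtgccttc
Tyms: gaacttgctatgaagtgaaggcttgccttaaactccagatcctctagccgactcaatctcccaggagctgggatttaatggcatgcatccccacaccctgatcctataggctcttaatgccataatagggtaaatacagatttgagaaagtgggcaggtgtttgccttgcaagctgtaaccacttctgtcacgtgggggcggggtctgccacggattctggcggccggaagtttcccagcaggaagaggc
The first match began at position -138 in Cdc6, -153 in Mcm5, -110 in Mcm6 and -27 in Orc1, counted from the annotated start at 0. The matches of Mcm5 overlap each other, as do the first and second of Mcm6, whose last begins at -47.

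Promoter windows of 300 bases, the 250 above and 50 after the start, were in the table for 46 of the 55 genes. The E2F motif was in a window of 19 of the 46 (41.3%), against 4.80% of 15563 genes on the array. The CCAAT box (CCAAT), a common element of cell-cycle promoters, was in 30 of 46 (65.2%) against 41.7%. The cell-cycle homology region (TTTGAA) was in 9 (19.6%) against 17.3%, and the AP-1 motif (TGANTCA) in 1, Pold3 (2.17%), against 8.06%. All motifs were searched on both strands, and the letters of no motif contain those of another. The 19 genes with an E2F match and the 27 without had median log2 differences between doses in wild-type cells of -0.42 and -0.48 and 9 and 12 genes called lower. A missing match says only that these letters are not in the window.

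**Figure D1:**
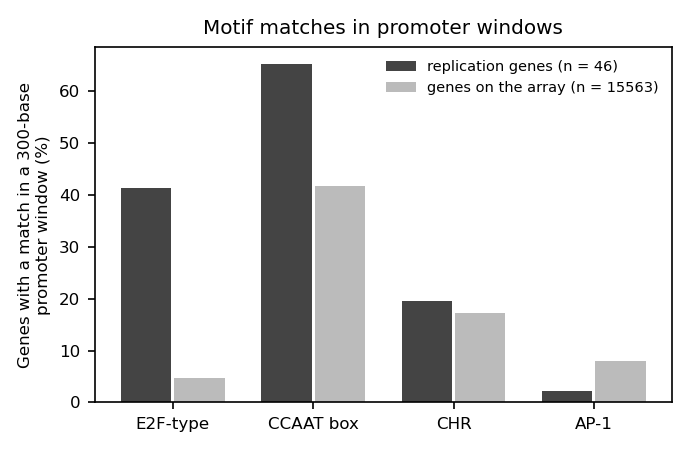
Share of genes whose promoter window holds each of the 4 motifs, in percent, for the 46 replication genes with a promoter in the table and for 15563 genes on the array. The E2F motif stood at 41.3% against 4.80% and the AP-1 motif at 2.17% against 8.06%.

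The 55 genes moved largely as one. Their common level, the mean over the genes of log2 intensity minus each gene's own mean over the 24 arrays, was -1.55 ± 0.03 in wild-type and -1.43 ± 0.07 in DKO cells at day 0 (mean ± SD, n = 3 throughout). It stood at 0.92 ± 0.03 and 0.76 ± 0.03 at day 2. At day 4 the genotypes parted in their order of doses: wild-type cells were at 0.44 ± 0.25 with 2.2 ng/ml and at -0.03 ± 0.12 with 10 ng/ml, while DKO cells were at 0.32 ± 0.14 and 0.58 ± 0.08. The 3 wild-type arrays at 10 ng/ml (-0.08, -0.12 and 0.10) lay below all other arrays of activated cells. Of the 55 genes, 42 had their highest group mean in wild-type cells at day 2, 53 had their lowest at day 0, and 47 had the lowest mean of the 6 activated groups in wild-type cells at 10 ng/ml. Single genes followed the common level with a Pearson correlation between 0.435 (Rpa1) and 0.994 (Mcm7) and a median of 0.967 over the 24 arrays, which share the large step from day 0.

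**Figure D2:**
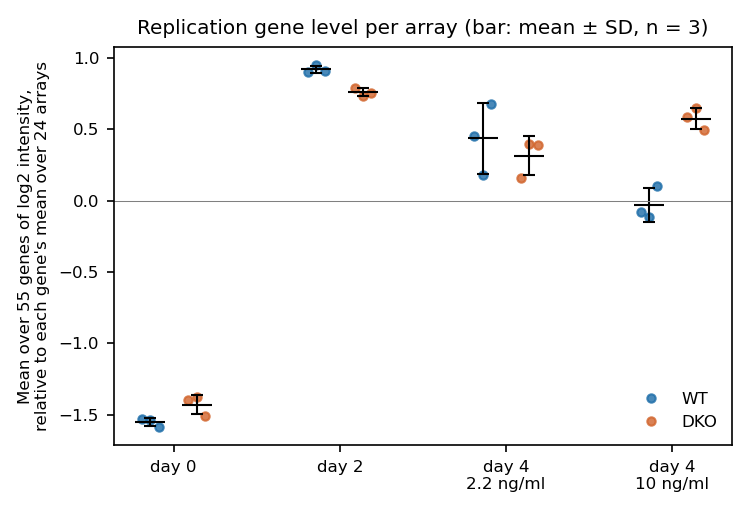
Common level of the 55 replication genes on each of the 24 arrays (log2 intensity minus each gene's mean over all arrays), by group. Points are arrays and bars are the mean ± SD of 3. Wild-type cells at 10 ng/ml lie near 0, below wild-type cells at 2.2 ng/ml and both DKO day 4 groups.

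**Figure D3:**
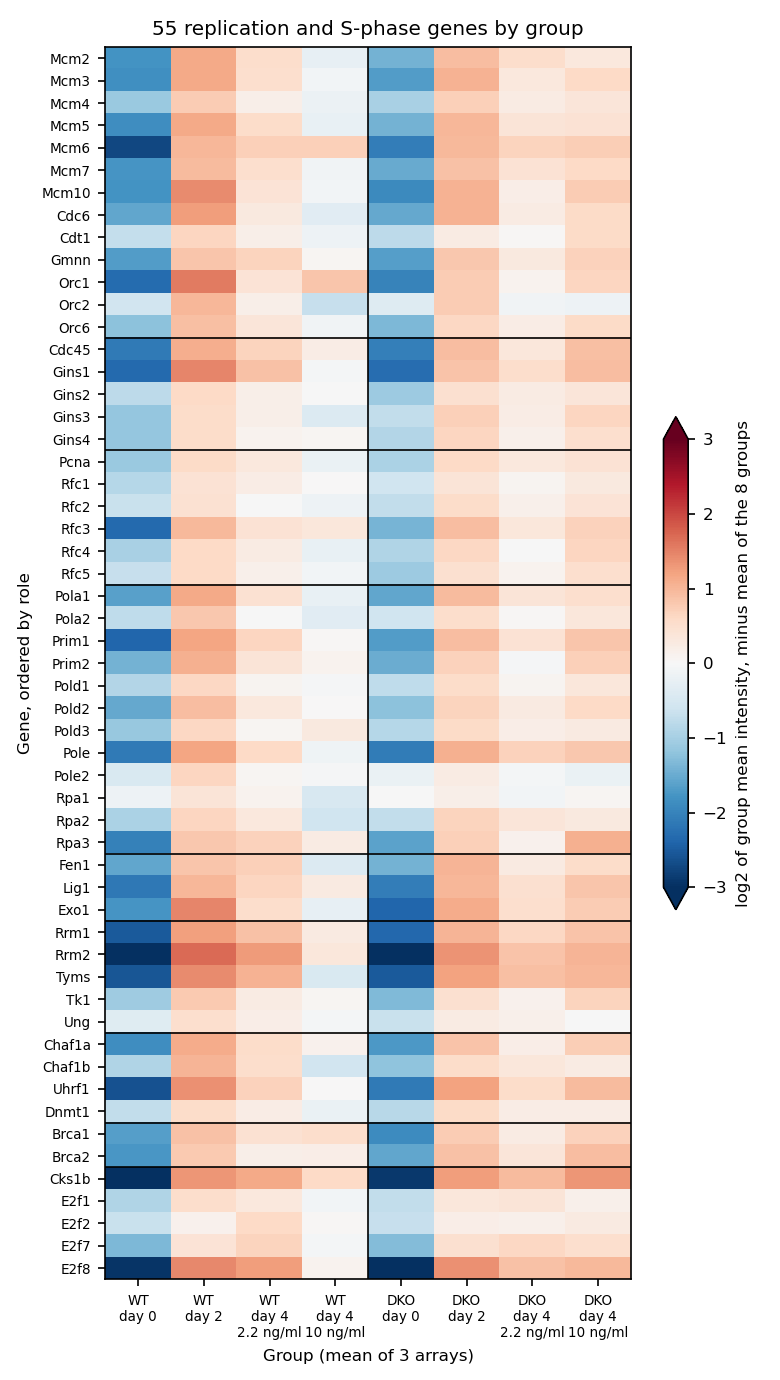
Group means of the 55 genes, each as log2 of the group mean minus the gene's mean of the 8 groups, in order of role. Blue is low and red is high. Of the activated groups, the column of wild-type cells at 10 ng/ml is the palest for most genes.

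All tests below compare groups in one limma model over the 24 arrays. Their p-values are adjusted by Benjamini-Hochberg over all 19938 genes, and a gene is called at an adjusted p under 0.05. Counts at an unadjusted p under 0.05 are not calls, and no share of all genes at that threshold is given beside them. Activation raised all of the replication genes in wild-type cells and nearly all in DKO cells. From day 0 to day 2, 55 of 55 rose in wild-type cells, where 19.7% of all genes rose and 20.5% fell, with a median log2 change of 2.50 against -0.11 over all genes. In DKO cells 53 of 55 rose (15.3% of all genes), with a median of 2.31. Rpa1, the large subunit of the single-strand binding protein RPA, and Pole2, an accessory subunit of polymerase epsilon, were not called in DKO cells, with log2 changes of 0.19 ± 0.16 and 0.41 ± 0.17 (SE). At day 0, 17 of the 55 had a wild-type mean below 32.2, the level of the median gene, so that background in the reading can shrink their folds.

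Cks1b, a small partner of cyclin-dependent kinases that takes part in degrading the inhibitor p27, had the largest rise in wild-type cells. Its intensity was 44.1, 34.5 and 38.9 at day 0 and 1327, 1309.5 and 1224 at day 2 in wild-type cells, and 56.7, 84.0 and 65.1 and then 1314, 1077 and 1277 in DKO cells. The rise was 33.0-fold (95% interval 26.9 to 40.6, adjusted p = 1.30e-18) in wild-type and 18.0-fold (95% interval 14.6 to 22.1, adjusted p = 5.60e-17) in DKO cells. Rrm2 rose almost equally in wild-type cells, by 5.042 log2 units against 5.045 for Cks1b. In DKO cells Rrm2 (4.61) and E2f8 (4.50) rose more than Cks1b (4.17). E2f8, an E2F family member that acts as a repressor late in S phase, came up from 9.86, 15.4 and 14.5 to 273, 269.9 and 287 in wild-type and from 12.9, 16.2 and 7.26 to 301, 248 and 236 in DKO cells. Uhrf1, which brings the methyltransferase DNMT1 to newly copied DNA, went from 65.3, 42.4 and 31.0 to 787, 714 and 691 in wild-type cells, 16.5-fold higher, and from 52.6, 54.6 and 87.2 to 765, 594 and 596 in DKO cells, 10.3-fold higher. The groups of each of these genes stood far apart with no overlap. The smallest wild-type rises were those of Rpa1, 1.47-fold, E2f2, 1.73-fold, and Ung, 1.80-fold. Ung, which removes uracil from DNA, went from 43.7, 40.5 and 35.7 to 68.1, 78.4 and 69.2 in wild-type cells.

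The size of the day 2 rise differed between the genotypes for 1 gene of 55, Cks1b, lower in DKO cells by a log2 difference of -0.88 ± 0.20 (SE, adjusted p = 0.033), where 0.742% of all genes were called lower. Its DKO cells began higher at day 0. At an unadjusted p under 0.05 in limma, the rise was smaller in DKO cells for 11 genes and larger for 0. The median difference over the 55 genes was -0.25. The call was lost without the second wild-type or the second DKO array of day 0, without any one wild-type array of day 2, and without the second or the third DKO array of day 2, and 2 genes were called without the first or the third wild-type array of day 0.

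At day 4 most of the genes still stood above day 0 in each group, with the smallest median change in wild-type cells at 10 ng/ml. Against day 0, 54 of 55 were higher in wild-type cells at 2.2 ng/ml (16.1% of all genes) and 48 at 10 ng/ml (18.4%), with median log2 changes of 1.91 and 1.44. In DKO cells 52 were higher at 2.2 ng/ml (11.6%) and 52 at 10 ng/ml (16.4%), with medians of 1.72 and 2.00. The 7 not called in wild-type cells at 10 ng/ml were Rpa1, Rpa2, Orc2, Pola2, Pole2, Ung and Chaf1b. Orc2, a subunit of the origin recognition complex, was at 97.2, 70.5 and 113 at day 0, 271, 269 and 297 at day 2, 156, 99.8 and 216 with 2.2 ng/ml and 84.4, 65.8 and 109 with 10 ng/ml in wild-type cells. Its high dose arrays thus overlapped those of naive cells. DKO cells held 92.7, 106 and 121 at day 0, 207, 243 and 259.8 at day 2, 132, 119 and 138 at the low and 122, 125 and 129 at the high dose.

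From day 2 to day 4 most of these genes fell in wild-type cells at 10 ng/ml, and 3 were called lower in DKO cells at that dose. The difference between these changes was not tested, and the genotypes are compared at each state further down. In wild-type cells 50 of 55 genes fell by day 4 at 10 ng/ml (12.9% of all genes), with a median of -0.89, and 23 fell at 2.2 ng/ml (6.46%), with a median of -0.47. In DKO cells 3 fell at 10 ng/ml (1.75%), namely Orc2, Mcm2 and Mcm5, with a median of -0.18, and 13 fell at 2.2 ng/ml (2.43%), with a median of -0.46. These comparisons share the day 2 arrays of their genotype. At 2.2 ng/ml the 23 in wild-type cells were 9 of 13 licensing genes, 8 of 12 of polymerases and single-strand binding, 3 of 4 of chromatin and methylation (Chaf1a, Uhrf1 and Dnmt1), and 1 gene each of clamp and loader, flap and ligation, and repair. None was among the 5 of helicase activation, the 5 of nucleotide supply or the 5 regulators, and no test compared the roles. Exo1, an exonuclease that trims DNA ends and mismatches, fell in wild-type cells from 223, 202 and 189 at day 2 to 119, 73.1 and 128 at the low dose and 59.0, 59.7 and 68.1 at the high dose, the latter 3.29-fold lower, with a 95% interval of 2.45 to 4.41. The count of 23 at the low dose became 7 without the second wild-type array at 2.2 ng/ml, 35 without the third, 13 without the first, and 14 without the first or the third day 2 array. The 13 in DKO cells at the low dose became 2 without the first low dose array, 8 without the second and 3 without the third day 2 array, and the 3 at the high dose became 1 without the third day 2 or the third high dose array.

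At day 4 many of the replication genes were lower at the higher dose of anti-CD3e in wild-type cells, and none was called lower in DKO cells. In wild-type cells 25 of 55 were lower at 10 than at 2.2 ng/ml (7.52% of all genes) and none was higher (7.64%), with a median log2 difference of -0.43 against -0.04 over all genes. At an unadjusted p under 0.05, 34 were lower and 0 higher. In DKO cells none was lower and 6 were higher (4.47%), namely Rpa3, Prim2, Cdc45, Mcm10, Cdt1 and Brca2, with a median of 0.26. Rpa3 was not called there with its dimmer probe set. At an unadjusted p under 0.05, 19 were higher and 0 lower in DKO cells. The fitted difference was below 0 in wild-type and above 0 in DKO cells for 42 of the 55. The dose effect itself differed between the genotypes for 29 genes, all in the direction of DKO cells being higher (3.56% of all genes, with 3.38% in the other direction), with a median difference of 0.75. The 4 groups of arrays behind this difference are also those behind the separate dose comparisons, so these are not independent of each other. Markers of other cells also moved with dose: the NK and CD8 list summed to 259.6 to 327 at the low and 88.8 to 118 at the high dose in wild-type cells and to 597 to 740.4 and 129 to 193 in DKO cells, mostly through Eomes, which averaged 200.2 and 599 at the low dose. The erythroid and stromal list, led by Pecam1, summed to 219 to 311 and 337 to 355 in wild-type and to 297 to 337 and 222 to 283 in DKO cells. The part of these in the result was not tested.

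**Figure D4:**
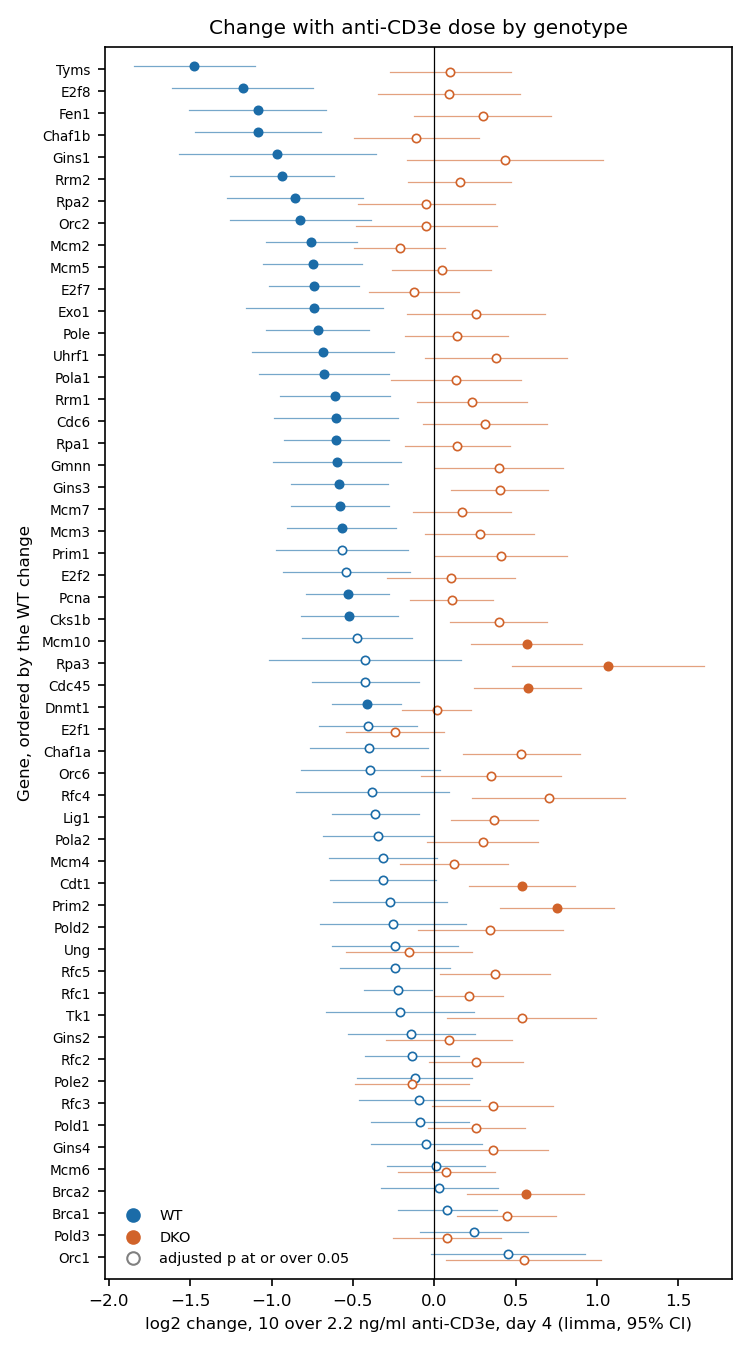
Log2 difference between 10 and 2.2 ng/ml at day 4 (horizontal axis, with 95% intervals) for each of the 55 genes, in wild-type (blue) and DKO (orange) cells, ordered by the wild-type difference. Filled points are called. Most blue points lie left of 0, with Tyms farthest, and most orange points lie right of it, with Rpa3 farthest.

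Single arrays weighed on these counts. Without the third wild-type array at 2.2 ng/ml, which read highest for most of the genes, 14 of 55 were lower at the high dose in wild-type cells, and without the second, which read lowest, 31 were. Without the second wild-type array at 10 ng/ml the count was 15. The 6 genes higher in DKO cells became none without the first DKO array at 2.2 ng/ml, and 3 without the second or without any one array at 10 ng/ml. The 29 differences between genotypes became 11 without the third wild-type or the first DKO array at 2.2 ng/ml, 17 without the first wild-type array at 2.2 ng/ml, 18 and 15 without the first and second wild-type arrays at 10 ng/ml, and 14 without the second DKO array at 10 ng/ml. Under every alternative run, 11 of the 25 falls held in wild-type cells (Tyms, E2f8, Fen1, Chaf1b, Rrm2, Rpa2, Mcm2, Mcm5, E2f7, Pole and Gins3), and 9 of the 29 differences between genotypes (Tyms, Fen1, E2f8, Rrm2, Mcm10, Prim2, Cdc45, Gins3 and Cks1b).

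Among the licensing genes, 7 of 13 were lower at 10 than at 2.2 ng/ml in wild-type cells, and the dose effect differed between genotypes for 7. Mcm2 and Mcm5 are subunits of the MCM helicase ring. Mcm2 read 381, 324 and 475 at the low and 214, 226 and 252 at the high dose in wild-type cells, 1.69-fold (95% interval 1.39 to 2.05, adjusted p = 2.37e-04) lower, and 359, 434 and 392 (low dose) and 357, 364 and 303 (high dose) in DKO cells. Mcm5 read 262, 236 and 386 (low dose) and 168, 170.2 and 176 (high dose) in wild-type cells, 1.68-fold (95% interval 1.36 to 2.07, adjusted p = 6.88e-04) lower, and 238, 256 and 293 (low dose) and 270.2, 294 and 249 (high dose) in DKO cells. The wild-type arrays of the 2 doses did not overlap for either gene, and the DKO arrays did. The dose effect was called as different between genotypes for Mcm5, by 0.79 log2 units, and was not called for Mcm2. Mcm10, which helps to activate the helicase and to recruit polymerase alpha, was 127, 97.1 and 147 (low dose) and 87.8, 83.5 and 92.4 (high dose) in wild-type cells and 91.0, 114 and 116 (low dose) and 154, 172 and 147 (high dose) in DKO cells. Its groups did not overlap between doses in either genotype. The DKO rise with dose was 1.48-fold (95% interval 1.17 to 1.87, adjusted p = 0.0314), and the difference in dose effect was 1.04 ± 0.23 in log2 units (SE, adjusted p = 0.00547). Cdc6, which loads MCM onto origins, was 102, 112 and 154 (low dose) and 74.3, 78.1 and 86.6 (high dose) in wild-type and 113, 127 and 118 (low dose) and 158, 162 and 127 (high dose) in DKO cells. Cdt1, the other loader, and Gmnn, whose product geminin blocks CDT1, differed in dose effect in the same direction, by 0.86 and 0.997.

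Mcm6 and Orc1 stood apart from the rest of the licensing genes. Mcm6, an MCM subunit too, was 701, 583 and 783 at the low dose and 729.7, 634 and 706 at the high dose in wild-type cells, and 609, 699 and 677 (low dose) and 683, 741 and 664 (high dose) in DKO cells. All 4 groups overlapped, and the wild-type log2 difference was 0.01 ± 0.14 (SE). Orc1, the subunit of the origin recognition complex whose amount varies through the cell cycle, was 197, 216 and 216 at day 2, 93.8, 69.4 and 122 at the low dose and 108, 122 and 155 at the high dose in wild-type cells. Its DKO arrays held 115, 114 and 137, 60.2, 93.8 and 77.1 (low dose) and 115, 133 and 88.8 (high dose). The wild-type difference between doses, 0.45 ± 0.23 (SE, adjusted p = 0.231), lay above 0, where every licensing gene but Mcm6 lay below it, and was not called. Mcm6 and Orc1 were, after Cks1b and Rrm2, the genes with the largest rises from day 0 in wild-type cells at the high dose, 11.1-fold and 9.05-fold.

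Of the helicase activation genes, which encode CDC45 and the GINS complex that together with MCM form the working helicase, 2 of 5 were lower at the high dose in wild-type cells and 3 differed in dose effect. Cdc45 read 297, 229.8 and 345 (low dose) and 206, 208 and 227 (high dose) in wild-type cells, and 200.2, 243 and 251 (low dose) and 346, 325 and 357 (high dose) in DKO cells, where it rose 1.49-fold (95% interval 1.18 to 1.87, adjusted p = 0.0235). Gins1 read 164, 95.2 and 166 (low dose) and 50.05, 63.8 and 108 (high dose) in wild-type and 72.7, 136 and 124 (low dose) and 123, 149.96 and 164 (high dose) in DKO cells. The spread of Gins1 within groups was wide, and its wild-type doses overlapped. Gins3 was 109, 82.7 and 96.1 (low dose) and 67.9, 61.0 and 62.0 (high dose) in wild-type and 91.2, 95.02 and 112 (low dose) and 133, 106 and 158 (high dose) in DKO cells. At 10 ng/ml DKO cells held 2.06-fold (95% interval 1.35 to 3.13, adjusted p = 0.0175) more Gins1 and 2.06-fold (95% interval 1.68 to 2.53, adjusted p = 8.94e-06) more Gins3 signal than wild-type cells. Gins2 and Gins4 were called neither for dose nor for the difference in dose effect, with Gins2 at 205, 149.7 and 278 (low dose) and 175, 178 and 204 (high dose) in wild-type cells.

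The clamp and its loader had the smallest span of levels among the roles, from -1.11 ± 0.03 in wild-type cells at day 0 to 0.62 ± 0.03 at day 2 on the scale of the common level. Pcna, the sliding clamp and the brightest of the 55 genes, fell from 2483, 2168 and 2716 to 1519, 1567 and 2031 in wild-type cells, 1.45-fold (95% interval 1.21 to 1.72, adjusted p = 0.0031), and was 2298, 2546 and 2495 (low dose) and 2608, 2649 and 2639 (high dose) in DKO cells. None of the 5 subunits of its loader, replication factor C, was called lower with dose in wild-type cells, and 1, Rfc4, differed in dose effect, by 1.08. Rfc1, the large subunit, read 282, 284 and 283 (low dose) and 235, 242 and 249 (high dose) in wild-type and 234, 266 and 267 (low dose) and 294, 309.6 and 282 (high dose) in DKO cells. Its arrays were close within each group, and the wild-type arrays of the 2 doses did not overlap although the difference was not called.

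In the group of polymerases and single-strand binding, 4 of 12 genes were lower at the high dose in wild-type cells and 5 differed in dose effect. Pole, the catalytic subunit of polymerase epsilon, which copies the leading strand, fell from 169, 183 and 208 to 133, 103 and 105 in wild-type cells, 1.64-fold (95% interval 1.32 to 2.04, adjusted p = 0.00151), and held 164, 228 and 205 (low dose) and 215, 216 and 219.6 (high dose) in DKO cells. Prim1 and Prim2 form the primase. Prim1 was 433, 292 and 508 (low dose) and 263, 271 and 278 (high dose) in wild-type and 294, 345 and 433 (low dose) and 444, 477 and 485 (high dose) in DKO cells, and Prim2 was 52.4, 69.1 and 77.4 (low dose) and 49.4, 50.9 and 63.6 (high dose) in wild-type and 37.9, 58.2 and 53.6 (low dose) and 84.7, 70.1 and 95.5 (high dose) in DKO cells. For both genes all DKO arrays at the high dose lay above those at the low dose. Both differed in dose effect, by 0.97 and 1.02. Rpa3, the smallest RPA subunit, was 131, 99.0 and 199.9 (low dose) and 78.0, 98.0 and 140.3 (high dose) in wild-type and 46.4, 117 and 129 (low dose) and 161, 200.2 and 199 (high dose) in DKO cells. Its first DKO array at the low dose stood well below the others of its group. Rpa1 followed the common level least closely and read 196, 199.6 and 147 at day 0, 260.1, 259 and 272 at day 2, 215, 191 and 243 at the low and 145, 117 and 169 at the high dose in wild-type cells. The high dose values overlapped those of naive cells. Pole2 and Pold3, accessory subunits of polymerases epsilon and delta, were not called in any of the dose tests.

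Fen1, Lig1 and Exo1 finish the lagging strand or trim DNA ends, and the dose effect differed between genotypes for each of the 3. Fen1, which removes the flaps of Okazaki fragments, fell from 143, 100.1 and 185 to 57.1, 68.2 and 71.0 in wild-type cells, 2.12-fold (95% interval 1.58 to 2.85, adjusted p = 4.11e-04). Its DKO values were 86.4, 126 and 107 (low dose) and 125, 132 and 131 (high dose). The difference in dose effect was 1.38 ± 0.29 in log2 units (SE, adjusted p = 0.00299). Lig1, the ligase that seals the fragments, was not called for dose in wild-type cells, with 392, 287 and 380.0 (low dose) and 266, 263 and 287 (high dose), but was higher in DKO than in wild-type cells at 10 ng/ml, with 413, 395 and 394, 1.47-fold (95% interval 1.22 to 1.77, adjusted p = 0.00401).

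The enzymes of nucleotide supply showed the largest single difference. Tyms, thymidylate synthase, the sole source of newly made thymidylate, read 552, 612 and 479 at day 2, 464, 333 and 462 at 2.2 ng/ml and 138, 136 and 176 at 10 ng/ml in wild-type cells. The corresponding DKO values were 515, 469 and 430.1, 324, 409 and 419.8 (low dose) and 414, 438 and 378 (high dose). All 3 wild-type arrays at the high dose thus lay below every other array of activated cells, which ran from 324 upward. The fall with dose in wild-type cells was 2.78-fold (95% interval 2.15 to 3.60, adjusted p = 1.53e-06), DKO cells at 10 ng/ml held 2.74-fold (95% interval 2.12 to 3.55, adjusted p = 1.82e-06) more than wild-type cells, and the dose effect differed by 1.57 ± 0.25 log2 units (SE, adjusted p = 2.03e-04). Rrm1 and Rrm2 form ribonucleotide reductase, which makes deoxynucleotides. Rrm2, the subunit that limits its activity in the cell cycle, fell from 587, 542 and 776 to 304, 319 and 365 in wild-type cells, 1.91-fold (95% interval 1.53 to 2.38, adjusted p = 9.00e-05), and was 487, 483 and 458 (low dose) and 568, 548 and 479.6 (high dose) in DKO cells. Ung was called in none of the dose or genotype tests, with 50.2, 56.1 and 68.2 (low dose) and 45.5, 57.8 and 44.0 (high dose) in wild-type cells.

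**Figure D5:**
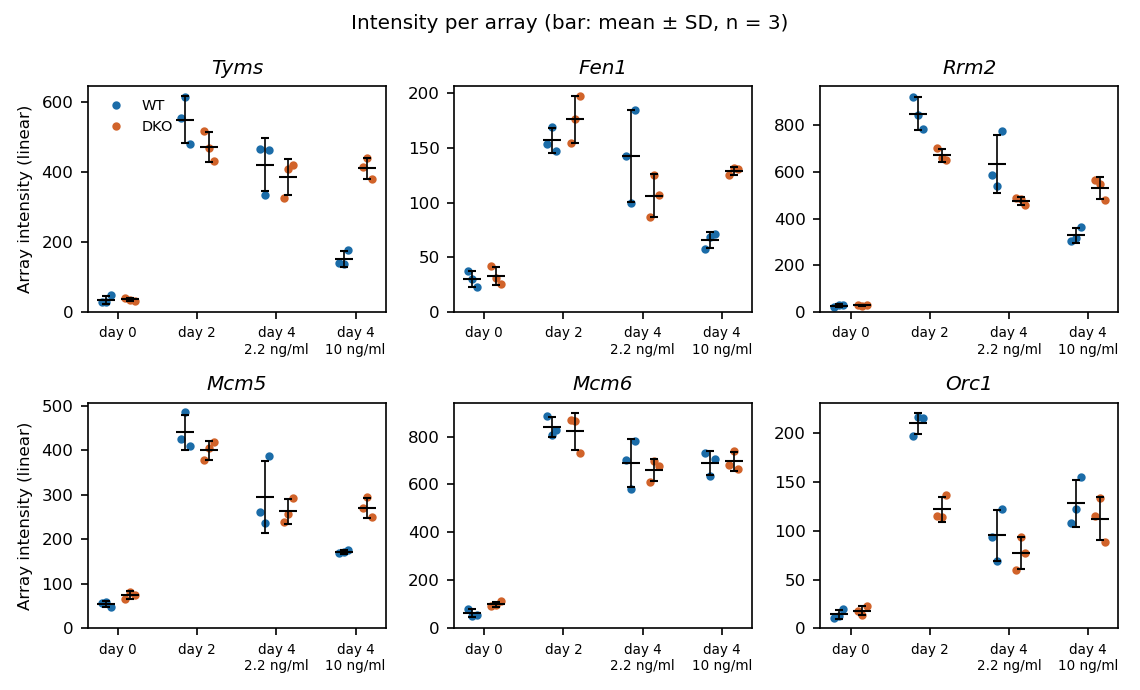
Intensity on each array, on a linear axis, for Tyms, Fen1, Rrm2, Mcm5, Mcm6 and Orc1 across the 8 groups. Points are arrays (blue wild type, orange DKO) and bars are the mean ± SD of 3. Tyms, Fen1, Rrm2 and Mcm5 are lower in wild-type cells at 10 ng/ml than at 2.2 ng/ml, while the doses overlap for Mcm6 and Orc1.

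Of the genes for chromatin and methylation, Chaf1b, a subunit of the chromatin assembly factor that places histones on new DNA, fell from 74.3, 56.2 and 86.1 to 29.8, 33.8 and 37.5 in wild-type cells, 2.12-fold (95% interval 1.62 to 2.77, adjusted p = 1.50e-04), where its naive level was 25.2, 28.4 and 26.6. Its DKO values were 66.0, 56.2 and 67.8 (low dose) and 59.5, 70.3 and 47.8 (high dose). Uhrf1 and Dnmt1 also fell with dose in wild-type cells, 1.61-fold and 1.33-fold. Dnmt1 read 662, 612 and 721 (low dose) and 466, 482 and 548 (high dose) in wild-type and 669, 683 and 639 (low dose) and 664, 701 and 648 (high dose) in DKO cells, and its dose effect was not called as different between genotypes, whereas those of Uhrf1 and both Chaf1 genes were.

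The 2 repair genes, Brca1 and Brca2, which act in homologous recombination at stalled forks, were not called for dose in wild-type cells. Brca1 was 72.6, 77.5 and 88.8 (low dose) and 73.5, 87.3 and 92.1 (high dose) in wild-type cells and 68.6, 73.3 and 64.3 (low dose) and 87.4, 102 and 91.6 (high dose) in DKO cells. Brca2 was 67.1, 83.5 and 92.0 (low dose) and 83.5, 87.4 and 75.4 (high dose) in wild-type cells and 85.4, 98.3 and 92.7 (low dose) and 119, 165 and 128 (high dose) in DKO cells, where it rose 1.47-fold (95% interval 1.15 to 1.89, adjusted p = 0.0478). The wild-type doses of both genes overlapped.

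The regulators split. E2f7 and E2f8, E2F members that repress, fell with dose in wild-type cells, as did Cks1b. E2f8 was 255, 231 and 243 (low dose) and 99.5, 93.6 and 133 (high dose) in wild-type cells, 2.26-fold (95% interval 1.67 to 3.06, adjusted p = 2.34e-04) lower, and 176, 205 and 180.4 (low dose) and 236, 189 and 176 (high dose) in DKO cells. Cks1b was 1073, 1005 and 1263 (low dose) and 691, 733 and 907 (high dose) in wild-type and 868, 994 and 1073 (low dose) and 1317, 1289.6 and 1238 (high dose) in DKO cells. For Cks1b the doses did not overlap in either genotype, with the low dose above in wild-type and below in DKO cells. The activators E2f1 and E2f2 were dim and were not called for dose in either genotype. E2f2 read 49.3, 53.6 and 58.5 at day 2, 85.6, 82.1 and 56.4 at the low and 47.4, 54.8 and 49.6 at the high dose in wild-type cells, the only one of the 55 besides E2f7 whose low dose mean lay above its day 2 mean, although neither difference was called.

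Between genotypes, most of these genes differed at 10 ng/ml, and few were called in the other states. At 10 ng/ml 39 of 55 were higher in DKO than in wild-type cells (6.68% of all genes) and none was lower (6.09%), with a median log2 difference of 0.64. At an unadjusted p under 0.05, 45 were higher and 0 lower. The 39 comprised 10 of 13 licensing genes, 3 of 5 in helicase activation, 4 of 6 of clamp and loader, 8 of 12 of polymerases and single-strand binding, 3 of 3 of flap and ligation, 3 of 5 of nucleotide supply, 4 of 4 of chromatin and methylation, 1 of 2 in repair (Brca2) and 3 of 5 regulators. This comparison uses the same wild-type arrays at 10 ng/ml as the dose comparison. Without the second of them 26 genes were called, and 25 of the 39 were called under every alternative. In the same DKO group the summed B cell markers were highest, 117 to 161 against 70.4 to 78.3 in wild-type cells, of which Cd79b made up 88.8 on average in DKO cells, and the part of this in the result was not tested.

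At 2.2 ng/ml none of the 55 was called between genotypes by limma (3.71% of all genes in either direction). An unadjusted p under 0.05 was found for 4, all lower in DKO cells. The median log2 difference was -0.12. At day 2 none was called either (2.71%), with 7 at an unadjusted p under 0.05, all lower in DKO cells, and a median of -0.13. Without the share of all genes at the unadjusted threshold, neither of these counts is read as a lowering in DKO cells. The largest day 2 difference was that of Orc1, -0.79 ± 0.23 (SE, adjusted p = 0.0667), with all 3 DKO arrays below the wild-type arrays. At day 0 Rfc3, a small subunit of the clamp loader, and Cks1b were higher in DKO cells (0.0552% of all genes). Of the 55 genes, 9 were higher and 2 lower in DKO cells there at an unadjusted p under 0.05 in limma. Rfc3 read 31.7, 32.6 and 48.6 in wild-type and 93.5, 71.4 and 53.2 in DKO cells, 1.92-fold (95% interval 1.48 to 2.49, adjusted p = 0.0388), and Cks1b differed by 1.74-fold (95% interval 1.41 to 2.13, adjusted p = 0.0376). These calls at day 0 fell to 1 or to none when any one of 5 of the 6 arrays was left out, all but the first wild-type array.

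A second probe set was present for 3 of the 55 genes. Those of Pcna followed each other at a correlation of 0.9996 over the 24 arrays and those of Rpa3 at 0.944. Those of Tk1, thymidine kinase, which salvages thymidine, correlated at 0.883. The dimmer probe set of Tk1 gave a difference in dose effect of 1.27 log2 units (adjusted p = 0.0284), and the brighter, used above, gave 0.75 (adjusted p = 0.198), so that the call for this gene depended on the probe set. The dimmer probe set of Rpa3 gave 1.03 against 1.49, and both were called. For the rise with dose in DKO cells it gave 0.595 (limma adjusted p = 0.0626) against 1.065 (adjusted p = 0.0221). Between genotypes at 10 ng/ml it gave 0.718 (adjusted p = 0.0138) against 0.860 (adjusted p = 0.0545), with all probe sets fitted. These 2 calls of Rpa3 thus depended on the probe set as well.

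Related genes outside the 55 were read in 4 lists by function. Of 34 other origin and fork factors, 29 rose (19.7% of all genes) and 1 fell (20.5%) from day 0 to day 2 in wild-type cells. From the low to the high dose in wild-type cells 17 of the 34 fell (7.52% of all genes) and 1 rose (7.64%), and the dose effect was higher in DKO cells for 8 (3.56%) and lower for 1 (3.38%). The 17 became 8 without the third wild-type array at 2.2 ng/ml and 9 without either the first or the second at 10 ng/ml. Dscc1, a subunit of an alternative clamp loader that acts in sister chromatid cohesion, fell from 118, 108 and 186 to 41.7, 58.8 and 75.5 in wild-type cells and was 86.8, 118 and 93.0 (low dose) and 167, 174 and 149.5 (high dose) in DKO cells, a difference in dose effect of 1.95 ± 0.28 (SE). Asf1b, a histone chaperone, fell from 292, 260.4 and 311 to 91.1, 124 and 171 in wild-type cells. The gene that rose was Pold4, the small subunit of polymerase delta, from 281, 175 and 204 to 910.2, 963 and 667 in wild-type cells, 3.87-fold (95% interval 2.88 to 5.21, adjusted p = 1.80e-07), against 196, 225 and 232 (low dose) and 373, 388 and 380.1 (high dose) in DKO cells. Its values at the high dose in wild-type cells were above those of every other group.

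Of 15 other genes of nucleotide supply, 11 rose and 4 fell at day 2 in wild-type cells, and 4 fell and 1 rose with dose, against the same shares of all genes. Dtymk, which phosphorylates thymidylate, fell from 256, 209 and 278 to 148, 124 and 164 in wild-type cells, 1.70-fold, and held 214, 248 and 278 (low dose) and 245, 269 and 267 (high dose) in DKO cells. Samhd1, which degrades deoxynucleotides, ran the other way, with 1742, 1647 and 1458 at day 0, 701, 662 and 581 at day 2, 1679.8, 1901 and 1292 at the low and 2834, 2493 and 2053 at the high dose in wild-type cells. At the high dose its DKO arrays held 1695, 1271 and 1444, below the wild-type arrays, and the difference in dose effect was -0.98 ± 0.21 (SE). Of 12 repair and translesion polymerase genes, 3 rose with dose in wild-type cells (7.64% of all genes) and 0 fell (7.52%), and at an unadjusted p under 0.05 in limma 4 rose and 0 fell. Polk, a translesion polymerase, went from 70.5, 68.0 and 91.6 to 189, 158 and 154, 2.19-fold higher. Of 17 cyclin, kinase, E2F and pocket protein genes, 6 fell with dose in wild-type cells (7.52% of all genes) and 1 rose (7.64%). Fbxo5, whose product EMI1 restrains the anaphase-promoting complex, fell from 724, 634 and 590.2 to 321, 304 and 314, and Ccna2, cyclin A, from 1124, 1082 and 1296 to 668, 702 and 706. In DKO cells Fbxo5 was 585, 607 and 649.8 (low dose) and 697, 655 and 618 (high dose), with overlap between the doses.

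Among the genes other than the 55, those whose log2 values over the 24 arrays were most like the common level were Hells (Pearson correlation 0.995), Psma7 (0.991), Ran, Chek1 and Dut (each 0.989). Hells, a chromatin remodeller, read 278, 209 and 383 at the low and 179.9, 159.8 and 230.3 at the high dose in wild-type cells and 218, 289 and 269 (low dose) and 306, 339 and 329 (high dose) in DKO cells. The most opposed were Slc44a2 (-0.974), Kif21b, Fgd3, Gimap3 and Clk1 (-0.969). All of these correlations contain the shared step between naive and activated cells.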

How the data were processed

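RNA from the 24 cultures or naive cell samples was labelled with biotin and hybridised to GeneChip arrays, 1 sample an array. The deposited values are intensities on a linear scale, 1 for each of 35556 probe sets, to which the authors applied RMA (background correction, normalization between arrays and summary over probes) per the submitters' processing notes, with the software version and build not given in the sources used here. RMA sets the probe values of all arrays to one distribution before the summary, so a change shared by all transcripts would not be seen. The summarized values of the arrays need not share one distribution. The deposited intensities ran from 1.95 to 14644.9, with array medians between 26.4 and 31.6, and the log2 of each was taken here. Arrays carry no counts, so their number limits the precision. Of the probe sets, 21789 name 1 gene, 1621 several and 12146 none in the platform annotation, and 21698 matched RefSeq with no symbol changed. The brightest probe set a gene was kept, which left 19938 genes, 999 of them with several.

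Groups were compared with limma 3.58.1 in R 4.3.3, in a single fit of the 8 group means (16 residual and 7.49 prior degrees of freedom) and 18 contrasts, Benjamini-Hochberg adjusted over all genes within a contrast. The scripts were tested on simulated data. Folds are ratios of geometric group means, taken from the difference of mean log2 values, with 95% intervals. The labels do not say whether replicate numbers pair the arrays. Over 84 pairs of same-numbered arrays the deviations from group means correlated at a median of 0.0010 (-0.1523 to 0.2639). Over 168 pairs with different numbers the median was 0.0008 (-0.2023 to 0.2119). A median over all groups cannot show a pairing within some of them. Alternatives were quantile or cyclic loess normalization on top of the deposited values, other ways to combine probe sets, a filter at the median gene, other variance models, fits of the compared groups alone, a replicate block and each array left out. The 55 genes, their roles and the related gene lists were chosen with earlier results of these data known. Genes named with values are the 4 largest called changes of a contrast in each direction, the widest and narrowest gene of each role, genes outside these that a paragraph turns on, and up to 4 of each related list. Promoter sequences are RefSeq's.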

Additional observations from a re-analysis of the deposited data

Results flagged for a closer look

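For 30 results the effect of one condition differed between the genotypes by a test of the difference itself (limma, adjusted p under 0.05). In 29 of them the log2 difference between 10 and 2.2 ng/ml at day 4 was higher in DKO than in wild-type cells. By role, the differences in log2 units were, among licensing genes, Mcm10 1.04, Gmnn 0.997, Cdc6 0.92, Cdt1 0.86, Mcm3 0.85, Mcm5 0.79 and Mcm7 0.75. Among helicase activation genes they were Gins1 1.40, Cdc45 0.998 and Gins3 0.98, and for the clamp and its loader Rfc4 1.08 and Pcna 0.64. Among polymerases and single-strand binding they were Rpa3 1.49, Prim2 1.02, Prim1 0.97, Pole 0.85 and Rpa1 0.74. Fen1 differed by 1.38, Exo1 by 0.99 and Lig1 by 0.73. Tyms differed by 1.57, Rrm2 by 1.09 and Rrm1 by 0.84. Uhrf1 differed by 1.06, Chaf1b by 0.97 and Chaf1a by 0.94, and among the regulators E2f8 differed by 1.27, Cks1b by 0.92 and E2f7 by 0.62. The other result was the rise of Cks1b from day 0 to day 2, which differed by -0.88, smaller in DKO cells. Groups of 3 arrays were not tested for single outlying arrays.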

How the results depend on the processing

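The number of the 55 genes called kept within 1.5 times its value under most alternatives other than leaving out an array. The exceptions were 13 lower in wild-type cells at 2.2 ng/ml against day 2 with quantile normalization, 23 lower in DKO cells at 2.2 ng/ml against day 2 with dim genes left out, 16 lower at the high dose in wild-type cells with those groups fitted alone, and 10 higher at the high dose in DKO cells with array weights. Between genotypes at day 0 the count was 1 with every probe set or the replicate block and 0 with cyclic loess or the groups alone. At day 2 it was 1 with dim genes left out, the replicate block, array weights or the groups alone. The genotype difference in the day 2 rise was called for 2 genes with dim genes left out or array weights and for 0 with cyclic loess or the groups alone. With the replicate block, 26 genes were lower at the high dose in wild-type cells, 40 were higher in DKO cells at 10 ng/ml and 29 differed in dose effect. Apart from the counts between genotypes at day 0 and day 2 given above, the block changed no count by over 1.5 times. The common level at day 0 was -1.48, -1.41 and -1.47 in wild-type and -1.36, -1.35 and -1.36 in DKO cells with the median over genes, cyclic loess and quantile normalization, and at day 2 it was 0.80 in wild-type cells with either normalization and 0.72 in DKO cells with cyclic loess.

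Leaving out 1 array gave, against day 0, 54 to 55 genes in wild-type and 53 to 54 in DKO cells at day 2, 51 to 54 and 48 to 50 in wild-type cells at 2.2 and 10 ng/ml, and 51 to 52 in DKO cells at either dose. Against day 2 it gave 7 to 35 and 46 to 48 in wild-type and 2 to 13 and 1 to 3 in DKO cells at 2.2 and 10 ng/ml. Between genotypes it gave 0 to 2 at day 0, 0 to 0 at day 2 and at 2.2 ng/ml, and 26 to 40 at 10 ng/ml. For dose it gave 14 to 31 in wild-type and 0 to 6 in DKO cells, 11 to 32 for the difference in dose effect, and 0 to 2 for that in the day 2 rise. Fewer arrays leave a weaker test. Estimates near 0 changed sign without single arrays: Orc2 against day 0 in wild-type cells at 10 ng/ml (-0.31 to 0.062), and the wild-type dose differences of Mcm6 (-0.11 to 0.11) and Brca2 (-0.10 to 0.13). Cyclic loess moved the median of all genes from -0.11 to 0.00 for wild-type day 2 and from -0.10 to 0.00 for 10 ng/ml against day 0. Splits of all called genes into higher and lower moved from 2320 and 1651 to 2025 and 2219 with quantile normalization for DKO cells at 2.2 ng/ml against day 0, from 2056 and 2570 to 2469 and 2016 with cyclic loess for wild-type cells at 10 ng/ml against day 2, from 11 and 2 to 8 and 4 with quantile normalization between genotypes at day 0, and from 61 and 148 to 65 and 94 with quantile and 68 and 102 with cyclic loess normalization for the genotype difference in the day 2 rise. Further splits turned direction. They moved, with quantile normalization, from 3205 and 2607 to 2727 and 3236 for wild-type cells at 2.2 ng/ml against day 0, from 3277 and 2842 to 2890 and 3422 for DKO cells at 10 ng/ml against day 0, from 3677 and 3585 to 3250 and 3942 for wild-type cells at 10 ng/ml against day 0, from 3045 and 2654 to 2775 and 3115 for DKO cells at day 2, and from 891 and 734 to 862 and 881 for dose in DKO cells. With cyclic loess they moved from 1331 and 1214 to 1086 and 1423 between genotypes at 10 ng/ml and from 710 and 674 to 620 and 798 for the genotype difference in dose effect. The wild-type dose split of 1523 and 1499 became 1812 and 1204 with cyclic loess and 1253 and 1572 with dim genes left out, and that of wild-type day 2, 3934 and 4083, became 3812 and 2493 with dim genes left out. Counts of the related lists under the same alternatives, a choice made after seeing the data, ran for the wild-type dose comparison from 9 to 19 for other origin and fork factors, 2 to 7 for other nucleotide supply, 4 to 8 for cyclins, kinases, E2F and pocket proteins of S phase and 3 to 4 for repair and translesion polymerases. For the genotype difference in dose effect they ran from 7 to 14, 2 to 5, 1 to 7 and 0 to 3 in the same order. The causes were not tested.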
